A study of Rattus norvegicus with 8 samples.

Results

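The angiogenic growth factors measured here are 10 secreted proteins that act on blood vessels or on the cells around them, and their genes are Vegfa, Vegfb, Vegfc, Pgf, Pdgfa, Hgf, Fgf2, Fgf7, Angpt1 and Angptl4. They were chosen by gene symbol from the 13337 genes named on the Illumina RatRef-12 array, with the probe of highest mean log2 signal standing for each gene. Their transcripts were measured in adipose-derived mesenchymal stem cells (ASCs), stromal cells grown from inguinal and interscapular fat, of PVG rats (Piebald Virol Glaxo), the strain with spontaneous tolerance of a liver transplant, and of LEW rats (Lewis/Jms), the strain with acute rejection. All cells came from naive animals of 8-week age. The 8 arrays fell into 4 groups of 2: PVG ASCs with LPS (lipopolysaccharide, a bacterial endotoxin, at 1 µg/ml), PVG ASCs with PBS as the control, LEW ASCs with LPS and LEW ASCs with PBS, each harvested at 24 h and at 48 h. Every array held RNA pooled from 3 rats, and the cells of each rat were divided over the treatments and times, so all arrays of a strain share the same animals. The p-values thus reflect how far the 24 h and 48 h arrays of a group lay apart and not how far rats differ, and strain cannot be told apart from the particular rats that were pooled.

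New vessels grow when endothelial cells are driven to divide, migrate and sprout, and when mural cells then coat the sprouts. Stromal cells of fat are known to secrete growth factors of this kind, and their release is regarded as one way in which transplanted mesenchymal stem cells support tissue. Vegfa encodes the main mitogen of endothelial cells, Vegfb a relative known for a role in cardiac and fatty acid biology, Vegfc the factor of lymphatic vessel growth, and Pgf placental growth factor, which binds the receptor Flt1. Pdgfa encodes a chain of platelet-derived growth factor, which acts on mesenchymal cells through Pdgfra. Hgf (hepatocyte growth factor) is the ligand of the receptor Met, Fgf2 is basic fibroblast growth factor, and Fgf7 is keratinocyte growth factor, a stromal factor that acts on epithelia. Angpt1 (angiopoietin) steadies vessels through the receptor Tek, and Angptl4 (angiopoietin-like) inhibits lipoprotein lipase and is known as a target of both PPAR nuclear receptors and hypoxia.

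Promoters are shown for 4 members that differed between the strains, 3 of which also moved with LPS, as the 250 bases before the transcription start in RefSeq on the GRCr8 rat genome. Capitals mark matches, on either strand, to the hypoxia response core (ACGTG or GCGTG), the GC box (GGGCGG), the TATA box (TATAAA) or the kappa B decamer, a consensus for NF-kB proteins. The 4 sequences run 5′ to 3′ on the strand of the gene.
Angptl4: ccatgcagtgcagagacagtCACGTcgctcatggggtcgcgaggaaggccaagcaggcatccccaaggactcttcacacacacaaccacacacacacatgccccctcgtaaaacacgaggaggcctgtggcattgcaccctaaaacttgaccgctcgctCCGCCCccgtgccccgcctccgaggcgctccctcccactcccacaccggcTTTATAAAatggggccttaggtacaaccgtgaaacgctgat
Fgf7: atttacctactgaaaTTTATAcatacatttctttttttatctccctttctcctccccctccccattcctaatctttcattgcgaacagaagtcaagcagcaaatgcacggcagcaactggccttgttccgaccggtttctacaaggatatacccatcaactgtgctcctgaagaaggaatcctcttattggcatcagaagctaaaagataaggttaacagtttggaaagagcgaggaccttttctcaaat
Vegfc: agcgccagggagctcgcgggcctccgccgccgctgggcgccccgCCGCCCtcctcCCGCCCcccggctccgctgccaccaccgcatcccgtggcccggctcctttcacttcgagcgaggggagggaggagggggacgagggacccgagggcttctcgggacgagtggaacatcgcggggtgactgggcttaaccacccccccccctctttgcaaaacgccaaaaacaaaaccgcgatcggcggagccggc
Vegfa: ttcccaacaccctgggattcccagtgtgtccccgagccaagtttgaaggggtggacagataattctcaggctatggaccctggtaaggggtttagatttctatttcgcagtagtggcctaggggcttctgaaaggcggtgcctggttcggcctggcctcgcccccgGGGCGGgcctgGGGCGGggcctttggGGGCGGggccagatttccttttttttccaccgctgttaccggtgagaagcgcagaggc
The Angptl4 window lies on the minus strand at chr7:15258682-15258931, the Fgf7 window on the plus strand at chr3:133735377-133735626, the Vegfc window on the minus strand at chr16:44560888-44561137 and the Vegfa window on the plus strand at chr9:22452604-22452853. The Angptl4 and Fgf7 windows precede the start of 1 RefSeq transcript and lie within the wider annotated gene. In the Angptl4 promoter the TATA box was matched on both strands, by overlapping letters 41 to 34 bases before the start, and a hypoxia response core stood 230 to 226 bases before it. The Vegfa promoter held 3 GC boxes between 84 and 53 bases before the start, the Vegfc promoter held 2, and the Fgf7 promoter held none but had a TATA match on the opposite strand 235 to 230 bases before its start. Promoters were found for 9 of the 10 members. The hypoxia response core was in 4 of these 9 (Vegfb, Pgf, Fgf2 and Angptl4) and in 36.8% of 33356 distinct rat promoters of this length, the GC box in 6 of 9 and in 30.5%, the TATA box in 2 of 9 and in 12.9%, and the kappa B decamer in 0 of 9 and in 6.34%. A match describes letters only and does not show that a factor binds there.

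Of the 22523 probes, 39.7% to 42.2% were detected on each array (detection p under 0.05 against the negative controls of that array). After scaling to a common 75th percentile the median probe had 74.9 units, so values near this level lie in the background. Of the 14 MSC and fibroblast markers on the array, 13 were detected on all 8 arrays. Adipoq and Lep of adipocytes, Cdh5 and Vwf of endothelium, and Ptprc of leukocytes were undetected on every array. Yet among 11 adipocyte markers 2 (Lpl and Cebpa) were detected on all 8 arrays and 2 on none. For endothelium the counts were 3 (Tie1, Egfl7 and Cldn5) and 7 of 13 markers, and for macrophages and leukocytes 0 and 8 of 11. Among the members, Vegfa, Vegfc, Pgf, Pdgfa, Fgf2 and Fgf7 were detected on all 8 arrays. Vegfb was detected on 5, Angpt1 and Angptl4 on 4 each, and Hgf on 1. Probes detected on both arrays of at least 1 group were tested, which were 9552 probes and 9 of the 10 members. Hgf was left out, and Vegfb entered only through the LEW arrays and Angpt1 and Angptl4 only through the LPS arrays, so that a low value in the other arrays was already implied for these 3. Signals of different probes are not comparable, and each gene is compared only with itself. In cultures of mixed cells, fewer cells of a type and less RNA per cell cannot be told apart.

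**Figure D1:**
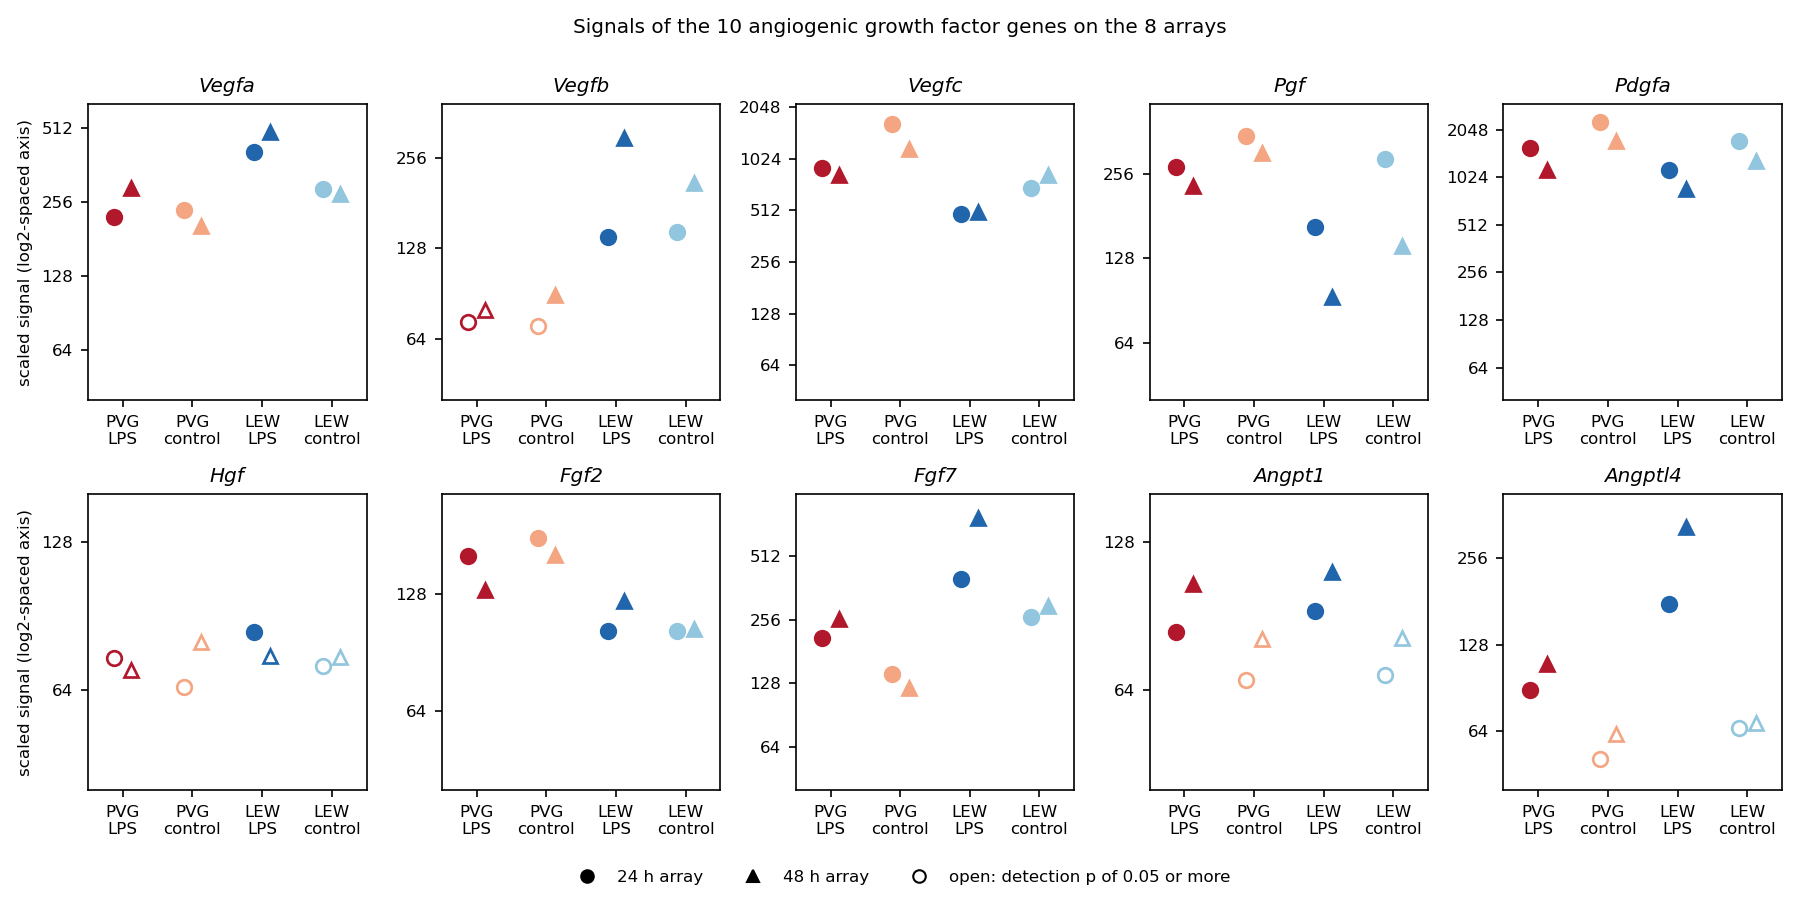
Scaled signal (log2-spaced axis) of the probe standing for each of the 10 genes on the 8 arrays, by strain and treatment, with circles for 24 h and triangles for 48 h, and open symbols where the detection p was 0.05 or more. Vegfc and Fgf2 lay higher on all 4 PVG arrays than on any LEW array and Vegfb and Fgf7 lower, while Angptl4 and Angpt1 were detected on the 4 LPS arrays and on none of the 4 control arrays.

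The first comparison asked which of these genes differed between PVG and LEW ASCs. Averaged over both treatments, 7 of the 9 tested members passed limma (adjusted p under 0.05, Benjamini-Hochberg over all tested probes), against 14.9% of all tested probes. Vegfc, Pgf and Fgf2 were higher in PVG ASCs, and Vegfa, Vegfb, Fgf7 and Angptl4 were lower. Vegfb had entered the test only through the LEW arrays, so its lower value in PVG was already implied and adds nothing to the count. The members thus did not move in 1 direction, and their median log2 difference (PVG minus LEW) was -0.0653, against -0.00511 over all tested probes.

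Among the genes higher in PVG, Vegfc, the lymphatic factor, had signals of 902 and 828 in PVG LPS ASCs at 24 h and 48 h and of 1646 and 1168 in PVG control ASCs, against 486 and 504 in LEW LPS ASCs and 688 and 825 in LEW control ASCs. Every PVG array lay above every LEW array. The difference was 1.79-fold (log2 0.84, standard error 0.12, limma adjusted p = 0.00235, n = 4 arrays per strain) and still passed when any 1 array was left out. Fgf2, an endothelial and stromal mitogen, had 160.4 and 131 in PVG LPS ASCs and 178 and 161 in PVG control ASCs, against 103 and 123 in LEW LPS ASCs and 103 and 104 in LEW control ASCs. The strains did not overlap here either, and the 1.45-fold difference passed (log2 0.54, standard error 0.10, limma adjusted p = 0.00862), also when any 1 array was left out. With neqc, a correction that subtracts the background, it was log2 0.92. Pgf, the placental ligand of Flt1, had 269.7 and 231 in PVG LPS ASCs and 348 and 303 in PVG control ASCs, against 165 and 93.1 in LEW LPS ASCs and 288 and 142 in LEW control ASCs. Its strains overlapped, because the LEW control array at 24 h lay above both PVG LPS arrays. Pgf was 1.80-fold higher in PVG (log2 0.85, standard error 0.24, limma adjusted p = 0.0484), just past the threshold. That call was lost under 5 of 12 other processing settings and when any of 6 of the 8 arrays was left out, with an adjusted p of 0.18 without the PVG control array at 24 h, 0.123 without that at 48 h, 0.135 and 0.0875 without the PVG LPS arrays at 24 h and 48 h, and 0.119 and 0.0962 without the 48 h arrays of LEW control and LEW LPS.

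Among the genes lower in PVG, Fgf7, the keratinocyte growth factor, had 210.2 and 258 in PVG LPS ASCs at 24 h and 48 h and 142 and 121 in PVG control ASCs, against 401 and 775 in LEW LPS ASCs and 263 and 296 in LEW control ASCs. All PVG arrays lay below all LEW arrays, and the difference was 2.26-fold (log2 -1.17, standard error 0.19, limma adjusted p = 0.00407) and still passed when any 1 array was left out. Vegfa, the main endothelial mitogen, had 223 and 293 in PVG LPS ASCs and 237 and 204 in PVG control ASCs, against 407 and 493 in LEW LPS ASCs and 289 and 275 in LEW control ASCs. Within each treatment the strains did not overlap, and over both they did, since the PVG LPS array at 48 h exceeded both LEW control arrays. Vegfa averaged 237 in PVG and 355 in LEW (geometric means, log2 difference -0.58, standard error 0.12, limma adjusted p = 0.0109), with an adjusted p of 0.0511 without the PVG control array at 48 h. Vegfb had 72.7 and 79.9 in PVG LPS ASCs and 70.4 and 89.2 in PVG control ASCs, against 139.5 and 298 in LEW LPS ASCs and 145 and 211 in LEW control ASCs. The PVG signals were near background, with 1 of 4 arrays detected, while all 4 LEW arrays were detected. Its fitted difference passed (log2 -1.28, standard error 0.23, limma adjusted p = 0.00653), with an adjusted p of 0.0552 without the PVG control array at 24 h. Its size depended on the treatment of the background and was log2 -2.23 with neqc. Angptl4, the lipase inhibitor, had 89.0 and 109 in PVG LPS ASCs and 51.2 and 62.6 in PVG control ASCs, against 177 and 329 in LEW LPS ASCs and 65.9 and 68.2 in LEW control ASCs. The strains separated clearly in the LPS arrays, and the control arrays of both were undetected. Its mean difference was log2 -0.77 (standard error 0.18, limma adjusted p = 0.0243). A further probe of Angptl4 had log2 -0.10 (adjusted p = 0.528), and the mean of both probes had -0.44 (adjusted p = 0.0428). The call of the first probe was lost without either control array of PVG (adjusted p = 0.122 at 24 h and 0.0645 at 48 h) or of LEW (0.0565 and 0.0742), and without the PVG LPS array at 24 h (0.0859).

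Pdgfa and Angpt1 did not pass between the strains, and Hgf was not tested. Pdgfa, the platelet-derived growth factor chain, had 1556 and 1134 in PVG LPS ASCs at 24 h and 48 h and 2286 and 1739.6 in PVG control ASCs, against 1145 and 862 in LEW LPS ASCs and 1735 and 1303 in LEW control ASCs. At each matched treatment and time its PVG array was brighter than its LEW array, by a log2 ratio of 0.40 to 0.44 in all 4 pairs. The mean difference of log2 0.41 (95% confidence interval 0.05 to 0.78) had a limma adjusted p of 0.13. With the time point as a block in the fit, its standard error was 0.08 and it passed (adjusted p = 0.00335), as did 23.4% of all tested probes. Angpt1 had a log2 difference of -0.07 (95% confidence interval -0.34 to 0.21, limma adjusted p = 0.808). Hgf, the Met ligand, had 74.3 and 70.3 in PVG LPS ASCs and 64.7 and 80.2 in PVG control ASCs, against 83.8 and 75 in LEW LPS ASCs and 71.6 and 74.6 in LEW control ASCs, and only the LEW LPS array at 24 h was detected. At these signals a strain difference in Hgf could not be assessed.

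Markers of contractile cells moved with the strain. Of 6 smooth muscle markers on the array 5 were tested, of which 4 were higher in PVG and 0 lower. For these and the other markers below, the share of all tested probes was 14.9%. Of the 6, 4 were detected on all 8 arrays and 1 (Lmod1) on none. Their summed scaled signal was 16150 to 16400 in PVG LPS ASCs, 21670 to 23840 in PVG control ASCs, 2217 to 4086 in LEW LPS ASCs and 3984 to 5150 in LEW control ASCs. In PVG the sum was carried by 2 bright probes, Actg2 and Tagln (12310 and 10310 in control ASCs at 48 h). The part of these markers in the strain differences of the growth factors was not tested. Of the other tested markers, 4 of 14 for MSC and fibroblasts were higher and 3 lower in PVG, and 2 of 4 for pericytes were higher and 1 lower. For adipocytes 1 of 7 was higher and for mesothelium 1 of 3. None of the 3 for endothelium or the 2 for macrophages and leukocytes passed in limma. Before adjustment, 0 for endothelium and 1 for macrophages and leukocytes had a p under 0.05, as did 2692 of all 9552 tested probes for strain. For the LPS response averaged over both strains no tested marker of the 7 lists passed in the limma fit. Before adjustment, 6 for MSC and fibroblasts, 3 for smooth muscle, 1 for adipocytes and 1 for mesothelium had a p under 0.05. For LPS 1213 of all 9552 tested probes did. Within 1 strain only Vcam1, an MSC marker, passed, in PVG (log2 1.14, limma adjusted p = 0.0389). An analysis of variance with strain and LPS as factors and no moderation of the variances passed 0 of the 9 members in each of the 7 comparisons of strain and LPS. Before adjustment, 6 of the members had a p under 0.05 for strain in it and 6 for LPS, as did 2254 and 992 of all 9552 tested probes. After adjustment 4.87% of all tested probes passed for strain (0.66% with LPS and 0.806% in control ASCs), 0.0942% for LPS (0.0419% in each strain) and 0% for the interaction.

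The strain difference was then taken within each treatment. In LPS-treated ASCs 5 of 9 tested members passed, against 6.05% of all tested probes, and in control ASCs 3 of 9, against 6.94%. The 5 include Vegfb, whose lower value in PVG was implied by the detection filter. Vegfc and Fgf7 passed in both, with log2 differences (PVG minus LEW) of 0.80 with LPS and 0.88 in control ASCs for Vegfc (limma adjusted p = 0.0313 and 0.0187), and of -1.26 and -1.09 for Fgf7 (adjusted p = 0.0301 and 0.0469). With LPS only, Angptl4 was 2.45-fold lower in PVG (log2 -1.29, standard error 0.26, adjusted p = 0.0242), Vegfa 1.75-fold lower (log2 -0.81, standard error 0.17, adjusted p = 0.025) and Vegfb at least 2.48-fold lower, the bound being set by the detection limit of the PVG arrays (fitted log2 -1.42, adjusted p = 0.0381). The further probe of Angptl4 had log2 -0.12 with LPS (adjusted p = 0.711) and the mean of both probes -0.71 (adjusted p = 0.0463). With neqc the differences with LPS were log2 -2.02 for Angptl4 and -2.49 for Vegfb. In control ASCs Angptl4, Vegfa and Vegfb had log2 differences of -0.24, -0.36 and -1.14 (adjusted p = 0.711, 0.282 and 0.0796). Fgf2 passed in control ASCs, with a log2 difference of 0.71 (adjusted p = 0.0218), and had 0.37 with LPS (adjusted p = 0.21). None of these shifts between treatments passed as a strain by LPS interaction. With the time point as a block, 7 of 9 members passed with LPS and 6 of 9 in control ASCs, against 12.4% and 12.7% of all tested probes in that fit, the added ones being Pgf (adjusted p = 0.0073 with LPS and 0.0448 in control ASCs), Pdgfa (0.0329 and 0.0359) and, in control ASCs, Vegfb (0.00314). Without the block, the call of Fgf7 in control ASCs was lost under quantile normalization (adjusted p = 0.0572), in the second deposited table (0.0568) and with only probes detected on all 8 arrays (0.0512), and the call of Vegfb with LPS under the first 2 of these (0.0526 and 0.053). Leaving out 1 array could end each call. With LPS, Vegfc no longer passed without any 1 of the 4 LPS arrays (adjusted p up to 0.196), Angptl4 without any 1 of the PVG arrays (up to 0.158), Vegfb and Fgf7 without any 1 of these or without the 48 h array of LEW LPS (up to 0.196 and 0.193), and Vegfa without either PVG control array, the PVG LPS array at 24 h or the LEW LPS array at 48 h (up to 0.187). In control ASCs, Fgf7 no longer passed without any 1 PVG array or either LEW control array (up to 0.24), Fgf2 without any 1 control array (up to 0.157), and Vegfc without either LEW control array or the PVG control array at 24 h (up to 0.113).

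**Figure D2:**
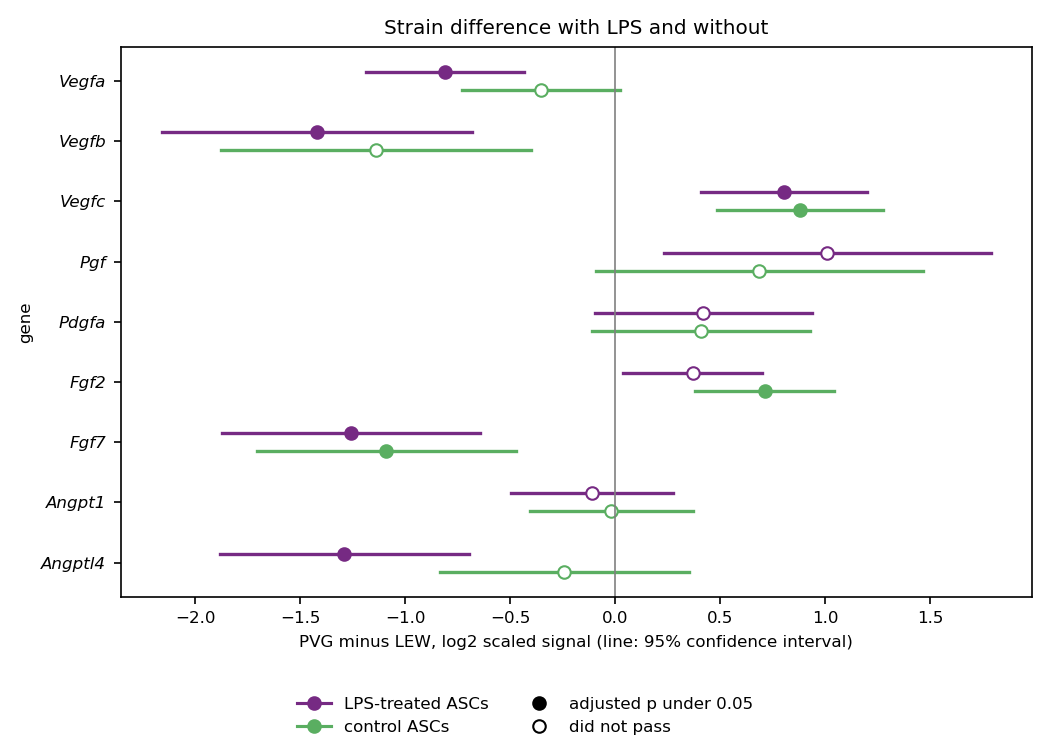
Log2 difference of PVG minus LEW for the 9 tested genes, with purple for LPS-treated and green for control ASCs, points for the estimate of limma, lines for its 95% confidence interval, and filled points where the adjusted p was under 0.05. Vegfc and Fgf7 are filled in both treatments, Vegfa, Vegfb and Angptl4 with LPS alone and Fgf2 in control ASCs alone.

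The second comparison asked how the genes responded to LPS, which cells sense through a Toll-like receptor. Averaged over both strains, 3 of the 9 tested members passed, against 2.26% of all tested probes: Angptl4 and Fgf7 rose and Vegfc fell. Angptl4 had entered the test only through the LPS arrays, so its rise was already implied and adds nothing to this count. The median log2 response of the members was 0.0829, against -0.00813 over all tested probes.

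Angptl4 was detected on all 4 LPS arrays and on none of the 4 control arrays, so its response started from the background. It rose at least 1.93-fold over the detection limit of the control arrays (fitted log2 1.32, standard error 0.18, limma adjusted p = 0.00966), though the adjusted p was 0.1 without the PVG control array at 24 h and 0.0774 without that at 48 h. Array against matched array, the log2 ratio of LPS to control was 0.80 at 24 h and 0.81 at 48 h in PVG, and 1.43 at 24 h and 2.27 at 48 h in LEW. The LEW LPS array at 48 h was thus the brightest by far and both PVG LPS arrays lay near the detection limit. In PVG ASCs the response was at least 1.25-fold and did not pass (fitted log2 0.80, 95% confidence interval 0.21 to 1.39, adjusted p = 0.443), and in LEW ASCs it was at least 2.99-fold and passed (fitted log2 1.85, standard error 0.26, adjusted p = 0.0237). Angptl4 was the only member to pass within LEW, where 0.649% of all tested probes passed, and the call was lost without any of the 4 control arrays, with an adjusted p of 0.105 to 0.157. Within PVG 0 of 9 members passed in limma, where 0.314% of all tested probes did. Before adjustment 4 members had a p under 0.05, as did 701 of all 9552 tested probes. The difference between the 2 responses, log2 -1.05 for PVG minus LEW (95% confidence interval -1.88 to -0.21, limma adjusted p = 0.999), did not pass. No member passed this interaction, which 0.0314% of all tested probes did. Angptl4 alone had an unadjusted p under 0.05, as did 253 of all 9552 tested probes. The further probe of Angptl4 was detected on all 8 arrays. It had 87.5 and 90.8 in PVG LPS ASCs, 75.9 and 93.0 in PVG control ASCs, 97.8 and 96.3 in LEW LPS ASCs and 88.1 and 90.4 in LEW control ASCs. Its LPS response was log2 0.10 (limma adjusted p = 0.731), and the mean of both probes had log2 0.71 (adjusted p = 0.0207). The probe standing for the gene had the higher signal on the 4 LPS arrays and the lower one on the 4 control arrays, so the rule that took the higher mean favoured the probe with the larger LPS response. With the further probe in its place, chosen as an alternative after seeing the data, 2 of 9 members passed with LPS and 0 in LEW, and between the strains 6 passed for the mean and 4 with LPS.

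Fgf7 rose with LPS in each of the 4 matched pairs of arrays, by log2 ratios of 0.57 at 24 h and 1.09 at 48 h in PVG and of 0.61 and 1.39 in LEW. The mean response was 1.88-fold (log2 0.91, standard error 0.19, limma adjusted p = 0.0495) and lay at the threshold: the call was lost under 5 of 12 other processing settings and without any 1 of 6 arrays, namely the 4 control arrays and both PVG LPS arrays (adjusted p = 0.0873 to 0.203). Vegfc fell in each pair, by log2 ratios of -0.87 at 24 h and -0.50 at 48 h in PVG and of -0.50 and -0.71 in LEW. Its signal with LPS was 1.56-fold lower than in control ASCs (log2 -0.64, standard error 0.12, limma adjusted p = 0.0336). This call was lost without any 1 array other than the LEW LPS array at 24 h, with adjusted p between 0.0507 and 0.138. Even with LPS, both PVG arrays lay above both LEW control arrays.

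The other tested members did not pass with LPS. Vegfa had log2 responses of 0.21 in PVG and 0.67 in LEW, where the LPS arrays lay above the control arrays at both times. Pdgfa had responses of -0.59 in PVG and -0.60 in LEW, and all 4 of its matched pairs lay between -0.62 and -0.55. Pgf had -0.38 in PVG and -0.70 in LEW, with LPS dimmer in each pair. Fgf2 and Vegfb had responses of -0.23 and -0.06 in PVG and of 0.12 and 0.22 in LEW, with pairs of both signs for each gene. Angpt1, the Tek ligand, had 84.0 and 105 in PVG LPS ASCs at 24 h and 48 h and 66.9 and 81.2 in PVG control ASCs, and 92.6 and 111 in LEW LPS ASCs and 68.5 and 81.4 in LEW control ASCs. It was brighter with LPS than in any control array, yet its fitted response of log2 0.39 over an undetected control had a limma adjusted p of 0.178. With the time point as a block, 7 of 9 members passed for the mean response, against 6.12% of all tested probes in that fit, and Pdgfa (log2 -0.59, adjusted p = 0.0016), Angpt1 (adjusted p = 0.014), Vegfa (log2 0.44, adjusted p = 0.0414) and Pgf (log2 -0.54, adjusted p = 0.0471) joined the others. In that fit Pdgfa was the only member to pass within PVG (adjusted p = 0.0279), and 4 members passed within LEW, against 1.8% and 3.52% of all tested probes. For the interaction 0 of 9 passed in that limma fit, against 0.0628%. Angptl4 alone had an unadjusted p under 0.05 in it, as did 488 of all 9552 tested probes.

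**Figure D3:**
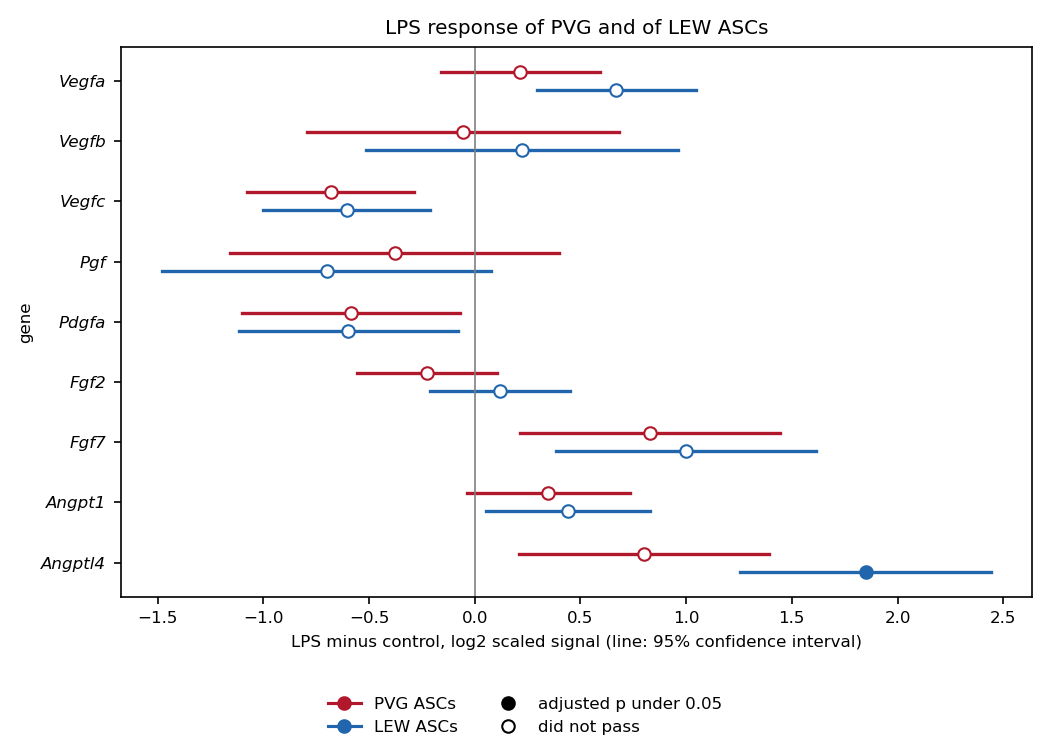
Log2 difference of LPS minus control for the 9 tested genes, with red for PVG and blue for LEW ASCs, points for the estimate of limma, lines for its 95% confidence interval, and filled points where the adjusted p was under 0.05. Angptl4 in LEW (log2 1.85) is the single filled point, and Vegfc and Pdgfa lie below 0 in both strains.

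The third comparison set the 48 h arrays against the 24 h arrays, with strain and treatment in the fit. Of the 9 tested members 1 passed, against 3.93% of all tested probes. Pdgfa was lower at 48 h on each of the 4 pairs, by log2 ratios of -0.46 in PVG LPS, -0.39 in PVG control, -0.41 in LEW LPS and -0.41 in LEW control ASCs. The mean was log2 -0.42 (standard error 0.08, limma adjusted p = 0.0153), and the adjusted p lay between 0.0566 and 0.0914 without any 1 array other than those of LEW LPS. Pgf was also lower at 48 h in each pair, by -0.22 and -0.20 in PVG LPS and control and by -0.83 and -1.03 in LEW LPS and control, and missed the threshold (mean log2 -0.57, adjusted p = 0.0507). Angpt1 was higher at 48 h in each pair, by 0.25 to 0.32, and Vegfb by 0.13 to 1.10, with limma adjusted p of 0.0863 and 0.0631. Angpt1 was undetected on all 4 control arrays, and Vegfb was detected on 1 of the 4 PVG arrays. Those ratios therefore compare signals in the background. Fgf7 and Angptl4 had their widest 48 h over 24 h ratios in LEW LPS ASCs, log2 0.95 and 0.90, and in the other 3 groups ratios of -0.23 to 0.30 and of 0.05 to 0.30. The control ratios of Angptl4 compare arrays on which it was undetected.

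**Figure D4:**
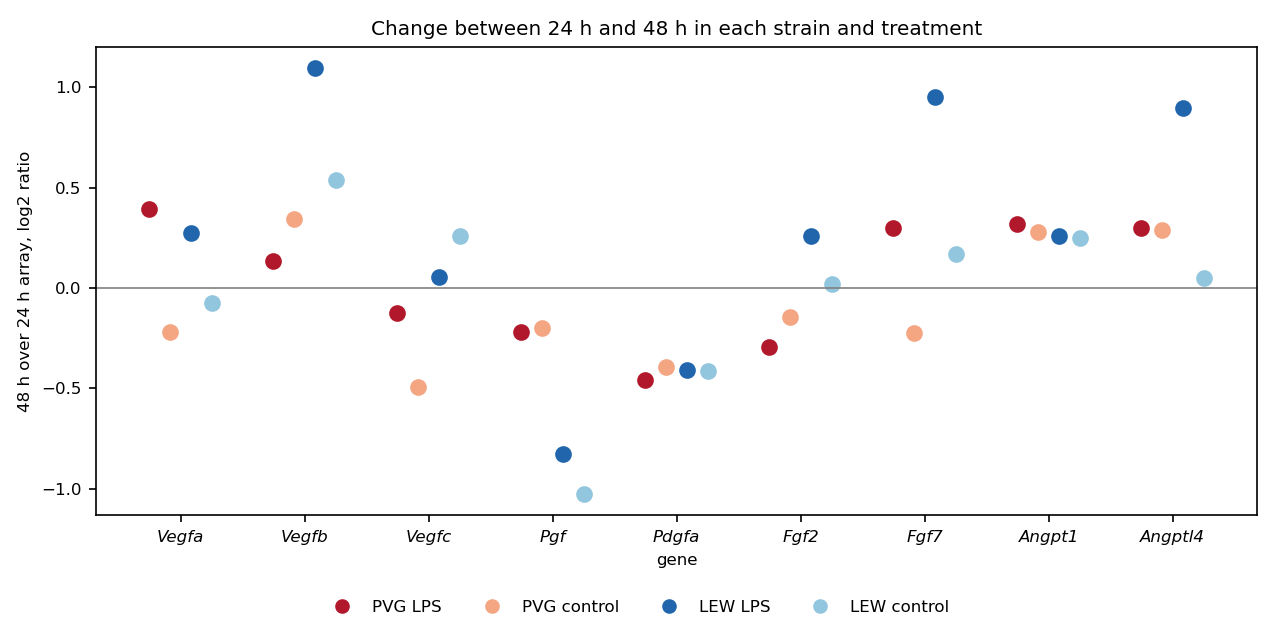
Log2 ratio of the 48 h to the 24 h array for the 9 tested genes in each strain and treatment, 1 point per pair of arrays. The 4 points of Pdgfa lie together between -0.46 and -0.39, while those of Vegfa are above 0 with LPS and below 0 in control ASCs and those of Vegfc and Fgf2 are below 0 in PVG and above 0 in LEW.

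Other genes followed the same course over the 8 arrays as single members. Each of the 8 members that passed a comparison was set against 1156 or 1157 genes detected on all arrays with a standard deviation of at least 0.3 on the log2 scale, and the 3 with the highest Pearson correlation were taken. Fgf7 ran most closely with Ang, the gene of the angiogenic ribonuclease angiogenin (r = 0.998), then Clmp (0.991) and the kinase gene Jak2 (0.984). Vegfb ran with Mdk, which encodes the heparin-binding growth factor midkine (r = 0.989), Atp6ap2 and Mgst1. Angptl4 ran with P4ha2, a collagen prolyl hydroxylase gene (r = 0.979), Tifa and Lrp11, Pdgfa with the cell cycle kinase gene Wee1 (0.988), and Vegfc with Prss23, Trib2 and Fhl1 (0.975 to 0.978). For Vegfa the closest was Rab9a (0.977), for Pgf Nop56 (0.971) and for Fgf2 Akirin2 (0.962). These correlations are descriptions over 8 points, which share their strains, treatments and times.

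Receptors of these factors and other members of the ligand families were followed in lists of known pathway genes. Of 10 receptor genes on the array 7 were tested, and between the strains 0 were higher in PVG and 1 was lower, a share near the 14.9% of all tested probes. The 1 gene was Pdgfra, the receptor of the Pdgfa product, with 439.6 and 746 in PVG LPS ASCs at 24 h and 48 h and 369.6 and 425 in PVG control ASCs, against 962 and 1874 in LEW LPS ASCs and 655 and 1246 in LEW control ASCs (log2 -1.21, limma adjusted p = 0.019). Pdgfra also rose between 24 h and 48 h (log2 0.71, adjusted p = 0.0107), the opposite of Pdgfa. The neuropilin gene Nrp1, a coreceptor of VEGF proteins, had log2 values of 0.05 between the strains and -0.57 with LPS (adjusted p = 0.88 and 0.108). Of 16 other ligands 6 were tested, with 0 higher and 3 lower in PVG: the angiopoietin gene Angpt4 (log2 -0.75, adjusted p = 0.0168), Angptl2 (log2 -0.92, adjusted p = 0.00564) and the lymphatic factor gene Vegfd (log2 -0.59, adjusted p = 0.00658). Angptl2 was detected on 2 of the 4 PVG arrays and entered the test only through the LEW arrays, so its lower PVG value was already implied. Vegfd and Vegfc, which share receptors, thus differed in opposite directions between the strains. None of the 7 receptors and 6 other ligands tested passed with LPS in limma. Before adjustment 1 of each had a p under 0.05, as did 1213 of all 9552 tested probes.

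Further secreted factors and inhibitors also went both ways, and their counts stand beside 14.9% of all tested probes that passed between the strains and 2.26% with LPS. Of 20 other secreted angiogenic factors 13 were tested, 3 were higher and 3 lower in PVG, and 4 rose with LPS. Edn1, the gene of the vasoconstrictor endothelin, was higher in PVG (log2 1.26, limma adjusted p = 0.000117), as were the EGF family genes Hbegf (log2 0.66, adjusted p = 0.00448) and Tgfa (log2 0.62, adjusted p = 0.00358). Adm, the gene of the vasodilator adrenomedullin, was lower in PVG (log2 -1.78, adjusted p = 0.00031) and rose with LPS (log2 1.02, adjusted p = 0.0251), the same pair of directions as Fgf7 and Angptl4. The chemokine gene Cxcl12 and the cytokine gene Il6 rose with LPS (log2 0.97 and 0.84, limma adjusted p = 0.0152 and 0.0336). Il6 was detected on 1 of the 4 control arrays and entered the test only through the LPS arrays. The Cxcl12 probe had 6554 and 9505 in LEW LPS ASCs at 24 h and 48 h against 3154 and 3294 in LEW control ASCs. In PVG it had 4403 and 6353 against 3569 and 3158. The study reported the larger LPS fold of Cxcl12 in PVG and almost none in LEW, so this probe does not match its values. Of 17 genes on the list of angiogenesis inhibitors 12 were tested, with 2 higher and 3 lower in PVG and 1 that rose with LPS. The last was the thrombospondin gene Thbs2, which was lower in PVG (log2 -2.48, adjusted p = 0.0011) and rose with LPS (log2 1.66, adjusted p = 0.0336). Also lower in PVG were Thbs4 (log2 -0.76, adjusted p = 0.00148, detected on 1 of 4 PVG arrays) and the metalloproteinase inhibitor gene Timp2 (log2 -0.67, adjusted p = 0.0448), and Ecm1 was higher (log2 0.33, adjusted p = 0.0273). Thbs4 entered the test only through the LEW arrays, so its lower PVG value was already implied. Neither Thbs4 nor Ecm1 is an established inhibitor, so the counts describe the list as drawn up and not inhibitors alone. Of 9 tested genes that activate or release such factors, 0 were higher and 1 lower in PVG, and the metalloproteinase genes Mmp3 and Mmp9 rose with LPS (fitted log2 2.69 and 0.71, adjusted p = 0.000131 and 0.0109). The rise of Mmp3 was log2 4.47 in LEW (limma adjusted p = 7.53e-05) and did not pass in PVG (log2 0.90, adjusted p = 0.276). Mmp3 was also the 1 gene lower in PVG (log2 -2.19, limma adjusted p = 8.42e-05), which did not pass in control ASCs (adjusted p = 0.433). It was detected on all 4 LPS arrays but on 1 of the 4 control arrays, and it entered the test only through the LPS arrays. The size of its change thus depends on the background.

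Angptl4 and Vegfa are known hypoxia targets, and Angptl4 is a PPAR target. Of 25 genes of the HIF pathway and its targets on the array 23 were tested. Between the strains 3 were higher and 10 lower in PVG, with a median log2 difference of -0.305. With LPS 6 rose and 0 fell, with a median of 0.47. These counts, and those of the PPAR targets below, stand beside 14.9% of all tested probes for strain and 2.26% for LPS. Whether either pathway bears on Angptl4 or Vegfa was not tested. The glycolytic hexokinase gene Hk2 was lower in PVG (log2 -0.70, limma adjusted p = 0.00109) and rose with LPS (log2 0.65, adjusted p = 0.00907). The stress gene Ddit4 (log2 -1.63 between the strains and 1.42 with LPS, adjusted p = 0.00142 and 0.015) and P4ha2 (log2 -0.72 and 1.04, adjusted p = 0.0153 and 0.0133) had the same directions, and Ndrg1 rose with LPS (log2 0.60, adjusted p = 0.0133). Hmox1, the heme oxygenase gene, was lower in PVG (log2 -1.71, adjusted p = 0.000178) and had log2 0.59 with LPS (adjusted p = 0.116). The mitophagy gene Bnip3 rose with LPS as well (log2 0.92, adjusted p = 0.0176) but was higher in PVG (log2 1.07, adjusted p = 0.00184). Of 8 tested PPAR targets 2 were higher and 0 lower in PVG and 0 passed with LPS in limma. With LPS 1 had an unadjusted p under 0.05, as did 1213 of all 9552 tested probes. The 2 were the fatty acid oxidation gene Cpt1a (log2 0.34, limma adjusted p = 0.0355) and Pparg itself, the nuclear receptor gene of fat cell formation (fitted log2 0.48, adjusted p = 0.0107). Pparg was detected on the 2 PVG control arrays alone and entered the test through them, so low values on the other arrays were already implied. In control ASCs it was at least 1.36-fold higher in PVG, over LEW arrays on which it was undetected. With LPS, Pparg had log2 -0.25 and Cpt1a -0.07 (adjusted p = 0.294 and 0.838), and Plin2, a lipid droplet gene, had -0.01 (adjusted p = 0.979).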

How the data were processed

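Signal intensities of Illumina RatRef-12 chips were deposited by the authors on a linear scale with no background subtraction, along with detection p-values, which the authors computed against negative controls. A second deposited table, used as an alternative, holds signal intensities that the authors normalized between arrays, with the same order of probes within each array. GEO's platform annotation gave 13793 of the probes 1 gene symbol and 8730 none. The members had 11 probes, 2 of them for Angptl4.

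After the methods of the study, signals were brought to the same 75th percentile and taken to log2. A floor of 16 was added here (it changed 0 values), and the further division by each gene's median over the arrays was not applied. Kept were 9552 probes, each with detection p under 0.05 throughout at least 1 of the 4 groups. A fit of the 4 group means by limma 3.58.1 in R 4.3.3 had 4 residual degrees of freedom, and adding the time point, for the time effect, left 3. Differences are log2 values, and p-values were adjusted by Benjamini-Hochberg over the kept probes. For a group undetected on all its arrays the fold is a lower bound: the bright group's geometric mean over the dim group's, where each dim array takes the lowest signal among its detected probes or its own signal, whichever is higher. The number of arrays limits the precision.

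The members and the 7 pathway and 7 marker lists were chosen with earlier results of these data known. Named genes are all members, per pathway list up to 4 genes with the smallest p for strain and up to 3 for LPS, and the 3 genes most correlated with each member that passed; markers named as undetected were picked after their values were seen. Promoters are RefSeq entries of GRCr8. The procedure was run on simulated data with independent noise on each array. These data did not model rats shared between arrays or the pairing of arrays by time. They thus do not show how the p-values behave under that design. Python 3.11.15 with pandas 2.3.3 and matplotlib 3.10.9 served for tables and plots. Alternatives were neqc (offset 16), normexp (offset 50), quantile normalization, the second table, a floor of 64, no detection filter or detection on all 8 arrays, a block for time, an additive fit, an intensity trend, an analysis of variance of strain and LPS without moderation, the mean over a member's probes, the further probe of Angptl4 (chosen after seeing the data), and each array left out, where a lone array was taken to vary as the rest do. The qRT-PCR, microRNA and animal experiments of the study were not analysed here.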

Additional observations from a re-analysis of the deposited data

Results flagged for a closer look

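The LPS response of Mmp3, the gene of a matrix metalloproteinase that releases growth factors from matrix, differed between the strains in the test of the strain by LPS interaction (log2 -3.57, PVG minus LEW, limma adjusted p = 0.0153). Its scaled signals were 131 and 97.3 in PVG LPS ASCs at 24 h and 48 h and 54.5 and 66.8 in PVG control ASCs, and 1364 and 2315 in LEW LPS ASCs and 82.5 and 77.6 in LEW control ASCs. It was undetected on both PVG control arrays and on 1 of 2 LEW control arrays, so the fitted size of the difference depends on the background. Among the members, 3 genes had 48 h over 24 h ratios of opposite sign in 2 groups, and these differences were not tested. Vegfa was brighter at 48 h in both LPS pairs and dimmer in both control pairs, a difference of log2 0.48 between the mean ratios (LPS minus control). Vegfc was dimmer at 48 h in both PVG pairs and brighter in both LEW pairs (log2 -0.47, PVG minus LEW), and so was Fgf2 (log2 -0.36).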

How the results depend on the processing

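The 21 member results followed were those that passed in the main fit, and the Angptl4 interaction for its unadjusted p under 0.05 in limma. Only that interaction could therefore come to pass, and members that passed under an alternative alone lie outside the tally. Of 406 alternative values, 294 kept their direction and side of the threshold and 111 kept the direction but no longer passed. A further 1 came to pass and 0 changed direction. The 1 was the Angptl4 interaction (log2 -1.49, adjusted p = 0.0428 without the LEW LPS array at 24 h), for which the other alternatives gave log2 -1.85 to -0.04 and adjusted p of 0.468 to 1. The analysis of variance without moderation passed 0 members between the strains (mean, control and LPS) and with LPS (mean, LEW and PVG). With the time point as a block, 6 members passed between the strains in control ASCs, and with LPS 7 passed for the mean, 4 in LEW and 1 in PVG. With only probes detected on all 8 arrays, which drops Vegfb, Angpt1 and Angptl4 by construction, 4 passed between the strains (mean), 3 with LPS treatment, 1 for the mean LPS response and 0 for LPS in LEW. With the further probe of Angptl4, an alternative chosen after seeing the data, 0 passed for LPS in LEW. For 48 h against 24 h, neqc passed 0, normexp 2, and no filter or an intensity trend 4 each. Among these, a count over all probes is given below for no filter alone. None is given for the fits with 1 array left out, so these member counts are not set against a share. Leaving out 1 array gave 4 to 7 members for the mean strain difference, 0 to 4 in control and 0 to 5 in LPS-treated ASCs, 0 to 5 for the mean LPS response, 0 to 2 in LEW, 0 to 2 in PVG, 0 to 1 for the interaction and 0 to 1 for time, and the lowest counts came without a PVG control array for the strain mean and the LPS response. Over all probes, the counts passing were 1425 for the strain mean (2232 with the block, 465 in the analysis of variance), 663 in control (1216 and 77), 578 with LPS (1189 and 63), 216 for LPS (585 and 9, and 340 with no filter), 62 in LEW (336 and 4, 174 with no filter, 16 when detected on all 8), 30 in PVG (172 and 4, 106 with no filter), 3 for the interaction (6 and 0, 6 with no filter, 5 with neqc and 1 when detected on all 8) and 375 for time (721 with no filter). The cause of these shifts was not tested. Signals near background limit Hgf, Angpt1, Angptl4 in control ASCs, Vegfb in PVG and, among the listed genes, Mmp3, Il6, Thbs4, Angptl2 and Pparg.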
